A study of Rattus norvegicus with 8 samples.

Results

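The genes that encode the proteins of the cytosolic ribosome were followed in rat vessel RNA. They were chosen by symbol: genes starting with Rpl (large subunit) or Rps (small subunit) and a number, with Rpsa and the stalk genes Rplp0, Rplp1 and Rplp2. Kinases of the Rps6k family and symbols marked as pseudogenes were left out. Among the 16678 named genes with a probe on the array, 93 met this rule, 58 of the large and 35 of the small subunit, through 211 probes. Of these, 90 genes (55 large and 35 small) had a probe bright enough to be tested, and Rpl27l2, Rpl39l1 and Rpl3l had none.

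Vessels came from 4 male control rats and 4 male hypertensive rats, with 1 array for each animal. The title sets Wistar-Kyoto controls, a normotensive strain, against hypertensive disease model rats, but the strain entry reads Wistar-Kyoto in both groups. The strain of the hypertensive rats, how their hypertension arose, any treatment, their age and the vessel taken are not given in the sources used here. The comparison asks which ribosomal protein transcripts differ in level between vessels of hypertensive and control rats. Whole vessel was used, so more cells of a type and more RNA per cell cannot be told apart.

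A ribosome holds a single copy of nearly every ribosomal protein around a core of ribosomal RNA. Their messenger RNAs are kept in near-balance and are among the most abundant in a cell. Nearly all vertebrate transcripts of this family begin with a C and a run of pyrimidines, the 5′ terminal oligopyrimidine (TOP) motif, through which mTORC1 signalling and the RNA-binding protein Larp1 govern how much of each is translated. Ribosome production rises when smooth muscle cells of a vessel wall grow.

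The start of each gene is where this shared feature lies, so it is shown for the gene that rose, for Rps10 and Rpl31, whose groups did not overlap, for the genes with the 2 lowest changes, and for a pair of paralogs. The sequences are from RefSeq on GRCr8, 5′ to 3′ on the gene's strand, 15 bases before the annotated first base and 15 bases from it on. Capitals mark the unbroken run of C and T that holds the first base or ends just before it.
Rpl38, chr10:100200420-100200449, plus strand: cttcgTTCTTTTTCCgttgttcggtgctcg
Rps10, chr20:5700730-5700759, minus strand: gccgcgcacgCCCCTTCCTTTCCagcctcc
Rpl31, chr9:49143096-49143125, plus strand: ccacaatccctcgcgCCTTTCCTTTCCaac
Rps2, chr10:14251833-14251862, plus strand: CCTCTTCTTTTTCTTCgggaaaacacgtga
Rps4x, chrX:71342907-71342936, minus strand: tccagcgcgcgcagCCTCCgaccctaattt
Rpl22, chr5:168117946-168117975, plus strand: gtagtgcgCCCCCCTCCCTTTCTgcctcct
Rpl22l1, chr2:113683181-113683210, plus strand: gctccgtggataTCCggttccgagttgcgc

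The run is 13 bases long in Rps10, 12 in Rpl31, 16 in Rps2, 5 in Rps4x and 15 in Rpl22, and 3 in the paralog Rpl22l1. In Rpl38 it is 10 bases long and ends just before the annotated start. There were 77 promoter entries for the 93 genes, with none for some genes and a further start for Rps27a. A C at the annotated first base followed by at least 4 bases that were C or T was present in 23 of 77 (29.9%), against 2.63% of all 33469 promoters of the same 300-base length. When the C could lie up to 10 bases to either side of the annotated start, 52 of 77 (67.5%) had such a run, against 28.9% of all.

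Among other letters searched, CTTCCG on either strand, which contains the core bound by ETS transcription factors and can overlap the pyrimidine run, occurred within the 300 bases in 37 of 77 (48.1%) and in 16.6% of all promoters. TATAAA on the gene's strand, between 45 and 16 bases before the start, occurred in 5 of 77 (6.49%) and in 1.62% of all. The tested genes with the pyrimidine run at the annotated first base had a median log2 change of 0.14 (23 promoters). Those without had 0.12 (51 promoters, with Rps27a counted at both of its starts). Rpl38, the only gene that rose, was among those without, since its run of 10 bases ends just before the annotated start. The split rests on the annotated base alone, so genes with a run nearby count as without.

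All levels below are log2 signal minus the 75th percentile of the array. A change is the hypertensive mean minus the control mean, tested with limma over 24552 genes and unnamed probes, and a gene was called at an adjusted p under 0.05. The 75th percentile lay at a signal of 405 to 503 on control and 357 to 478 on hypertensive arrays, and 58.7% to 64.1% of probes were well above background. No spot was saturated, and the brightest of the family reached 46.0% of the saturation value. All 8 arrays shared 1 slide and 1 scan, with the controls in slide row 1 and the hypertensive rats in slide row 2, so row and group cannot be told apart. The 6 smooth muscle markers were measured on all arrays, with changes from -0.13 to 0.17 and none past the threshold. None of the tested endothelial (6), fibroblast (5), adipocyte (5), lymphocyte (5) or mast cell (6) markers passed either. The unadjusted p in limma was under 0.05 for 0 of the smooth muscle markers and for 2, 1, 0, 3 and 5 of these. In contrast, 1 of 6 macrophage markers fell (Mrc1, -0.51) and 1 of 5 skeletal muscle (Myh1, 2.28), 1 of 4 red cell (Epb42, 0.74) and 1 of 5 nerve markers (Nefh, at least 13.0-fold, with 0 of 4 control arrays well above background) rose. The other members of these lists did not pass. In muscle they had values of both signs (Myh2 0.73, Acta1 -0.42), and in red cells values below 0 (Alas2 -0.80, Hbb -0.45 and Hba-a1 -0.29). All 6 macrophage markers had values below 0, and limma's unadjusted p was under 0.05 for 4 of them. Of the 5 nerve markers, 4 had values above 0 and 1 below. In the lists without a call, all 5 lymphocyte and all 5 fibroblast markers had values below 0. All 6 mast cell markers had values above 0. The median level of the macrophage markers was 0.19 to 0.45 on control and -0.56 to 0.10 on hypertensive arrays. The part of these cells in the values below was not tested.

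The family as a whole was close to even between the groups, with a single gene past the threshold. Rpl38 rose, no gene fell, and 89 of 90 did not pass. That is 1.11% of the family called, where 4.53% of all tests were called (2.61% higher and 1.91% lower). The split of calls over all tests moved with the scaling, from 57.7% higher as reported to 47.4% with quantile normalization and 39.3% with median centring. At an unadjusted p under 0.05 there were 5 of 90 family genes (5.56%), all 5 with higher values, against 20.3% of all tests. Every hypertensive array lay above every control array for 5 of 90 genes (Rpl13, Rpl17, Rpl31, Rpl38 and Rps10, 5.56%), where the share over all tests was 7.84%. The opposite order was found in 0 of 90, where the share over all tests was 5.78%. The family's shares on each of these measures were below those of all tests.

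**Figure D1:**
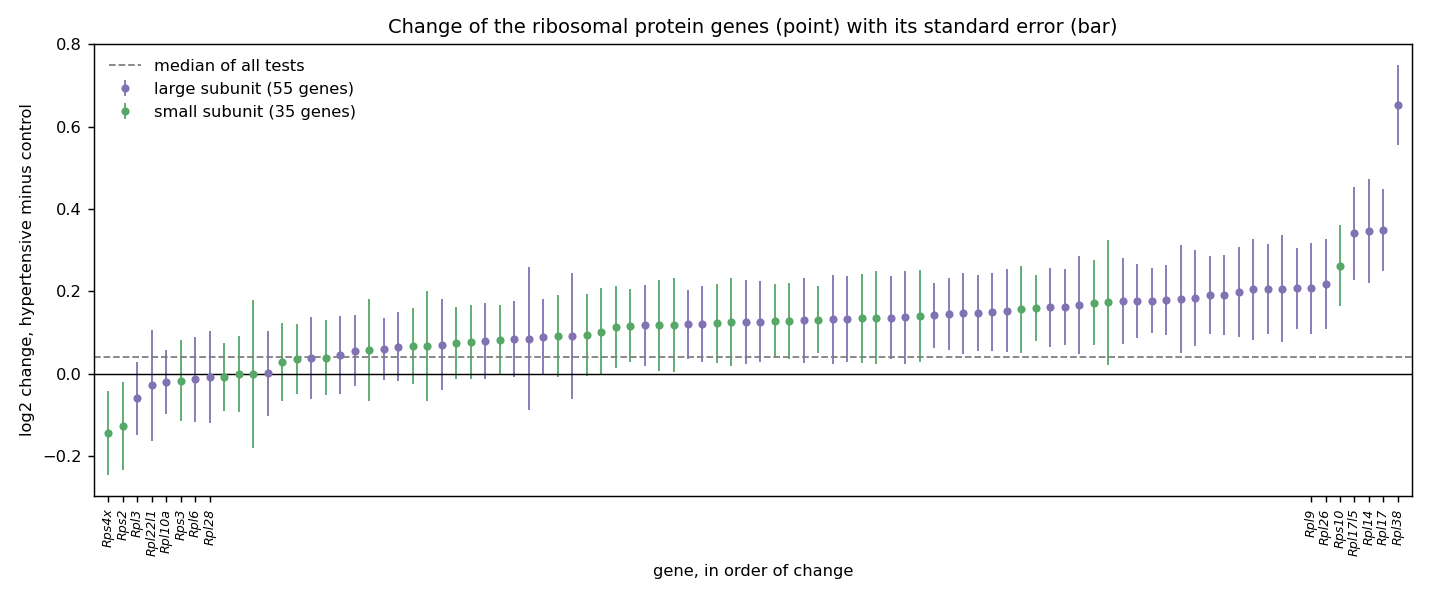
Log2 change (hypertensive minus control, vertical axis) of each of the 90 tested genes in order of size, with its standard error as a bar and names at both ends of the order; purple marks the large and green the small subunit, and the dashed line is the median of all tests. Rpl38 stands at 0.65, the next gene at 0.35, and the lowest, Rps4x, at -0.14.

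Changes within the family lay close together. Their SD was 0.10, against 0.40 over all tests, and their 10th and 90th percentiles were -0.0013 and 0.21, where those of all tests were -0.27 and 0.38. A change within 0.25 of 0 was found in 85 of 90 genes, and for 84 the 95% interval lay within 0.5 of 0. The median standard error was 0.099 in the family and 0.12 over all tests. All 90 tested genes were well above background on all 8 arrays. The family was far brighter than most tests, with a median level of 7.37 to 7.80 per array, where all tests had -0.75 to -0.71. The part of brightness in the narrow spread was not tested.

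Rpl38, a small protein of the large subunit whose loss in mice alters the skeleton and the translation of certain Hox transcripts, was the gene that rose. Its level was 7.53, 7.83, 7.86 and 7.78 on control arrays 1 to 4 and 8.33, 8.53, 8.42 and 8.33 on hypertensive arrays 1 to 4. The lowest hypertensive array lay above the highest control array. The control mean was 7.75 ± 0.15 and the hypertensive mean 8.40 ± 0.093 (SD, n = 4 each), a log2 change of 0.65 ± 0.098 (SE) or 1.57-fold. The 95% interval was 0.43 to 0.875, and limma's adjusted p was 0.0072.

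All 3 probes of Rpl38 gave this rise. The brightest changed by 0.65 and the others by 0.75 and 0.76, with limma's adjusted p over all kept probes of 0.0073, 0.0044 and 0.0035. They were the only 3 of the 206 kept probes of the family past the threshold, where 4.37% of all kept probes were. The reference table lists 7 pseudogenes and 6 further numbered copies of Rpl38. A signal from these copies was not told apart from that of Rpl38 itself, since the files hold no probe sequences.

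**Figure D2:**
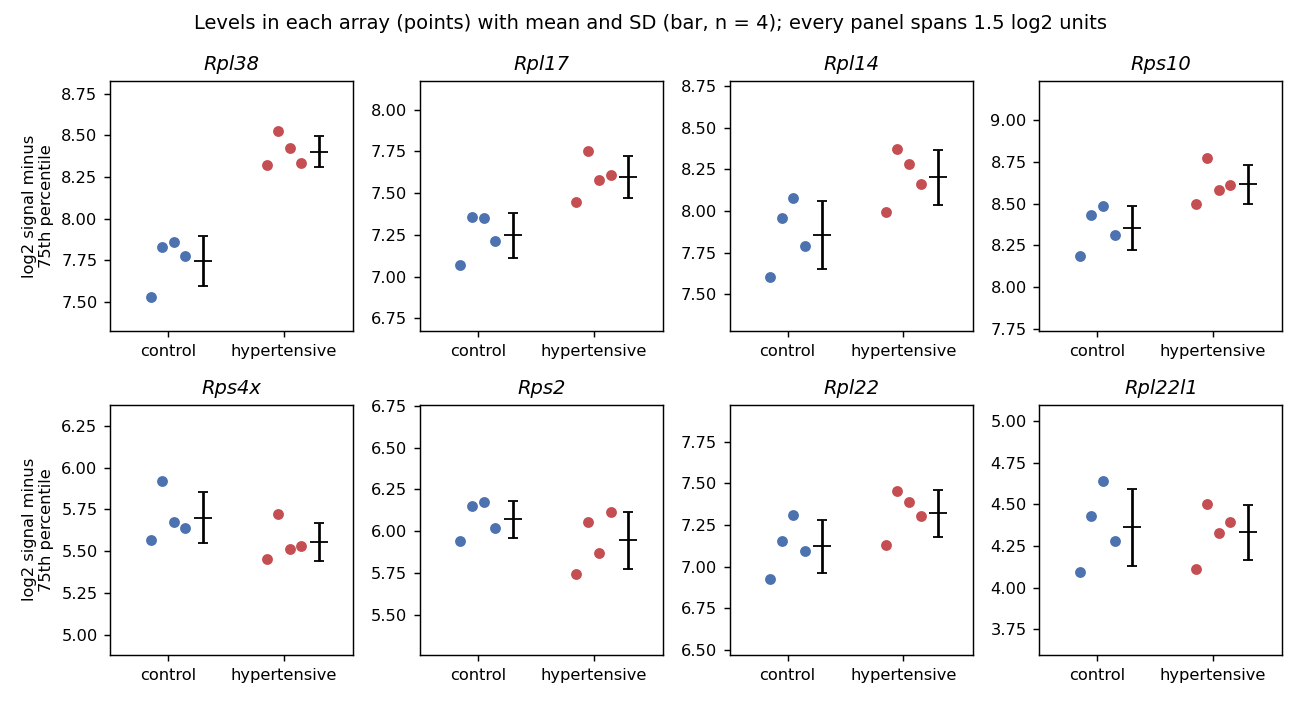
Level (log2 signal minus the array's 75th percentile) of 8 genes in each of the 4 control (blue) and 4 hypertensive (red) arrays, with group mean and SD as a bar; each panel spans the same 1.5 log2 units around its own centre. Rpl38 separates by 0.65, Rpl17 and Rps10 separate by less, and Rps4x, Rps2 and Rpl22l1 overlap.

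The genes moved together from array to array. Rpl38 followed this movement within each group, lowest on array 1 of both, and stood apart from the family between the groups. Control array 1 had the lowest control level for 87 of the 90 genes, and hypertensive array 1 the lowest hypertensive level for 76. Hypertensive array 2 was the highest of its group for 73, and control array 3 for 55. The median level of the family was 7.37, 7.66, 7.71 and 7.60 on the control arrays and 7.58, 7.80, 7.67 and 7.74 on the hypertensive arrays. The family medians of the groups overlapped.

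Set against this family median on the same array, Rpl38 stood at 0.16, 0.17, 0.15 and 0.18 on the control arrays and at 0.75, 0.73, 0.75 and 0.59 on the hypertensive arrays. When every array was centred on the family, an alternative chosen after seeing the data, the change of Rpl38 was 0.54, with limma's adjusted p at 0.0156. In that scaling 6 genes had an unadjusted p under 0.05, against 17.2% of all tests: Rpl38, Rpl17, Rpl14 and Rpl17l5 with higher values and Rps2 and Rps4x with lower ones. Of the 6, only Rpl38 passed after adjustment, where 2.91% of all tests did.

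**Figure D3:**
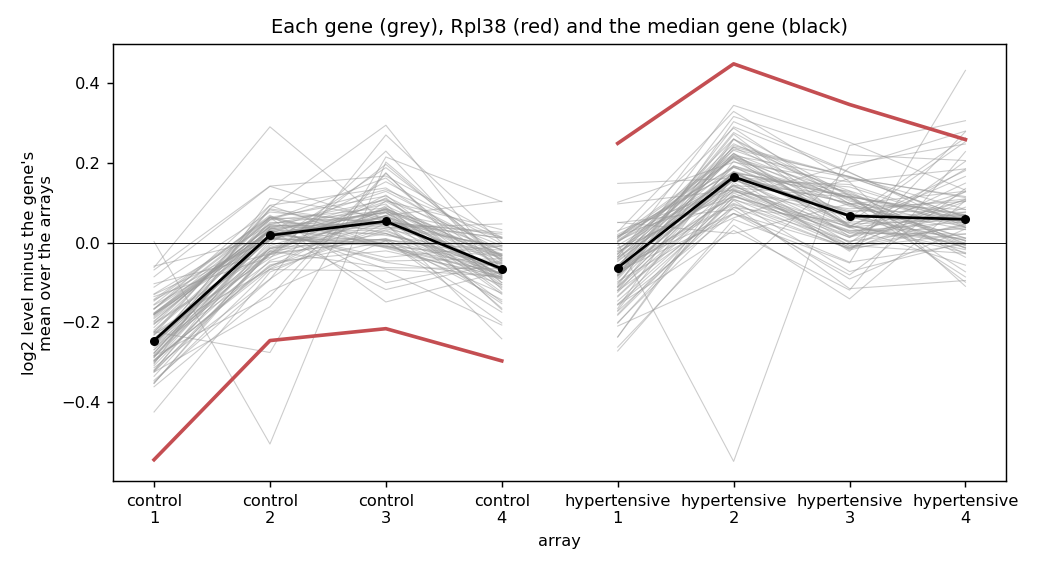
Log2 level of each tested gene on each array minus its own mean over the 8 arrays (vertical axis), with 1 grey line per gene, Rpl38 in red and the median gene in black; lines join arrays of a group for legibility only. Most grey lines follow the black one, with control array 1 lowest for 87 of 90 genes, while Rpl38 lies below most of them in controls and above most of them in hypertensive rats.

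The median change of the family was 0.13, where all tests had 0.04, and 79 of 90 genes (87.8%) had a change above 0 against 57.7% of all tests. The large subunit genes had a median of 0.14 and the small subunit genes 0.10. These medians were smaller than or close to the pooled SD of the array medians, which was 0.13 for the family, 0.14 for the large and 0.099 for the small subunit. They also moved with the scaling. Quantile normalization gave a family median of 0.0026 with 47 of 90 above 0, and a small subunit median of -0.012. Median centring gave 0.04 with 60 above 0, and normexp background correction 0.083 with 78. Without control array 1 the median was 0.06 with 69 above 0.

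**Figure D4:**
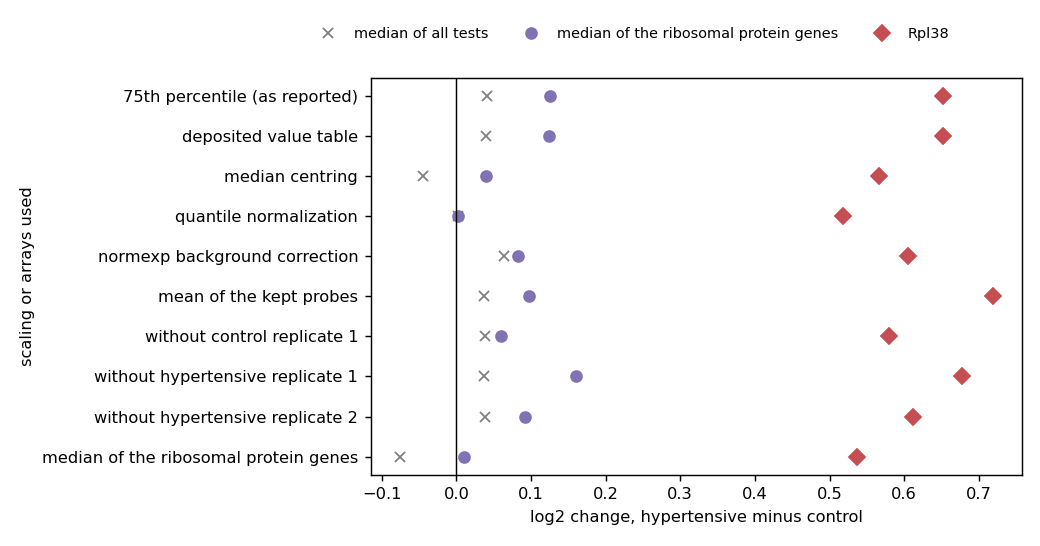
Log2 change (hypertensive minus control) of Rpl38 (red diamonds), the median of the ribosomal protein genes (purple circles) and the median of all tests (grey crosses) under 10 ways of scaling or choosing the arrays. The family median runs from 0.0026 to 0.16, and Rpl38 from 0.52 to 0.72.

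For the tunnel through which the new chain leaves the ribosome, 7 tested genes were grouped, which is not a full list of its proteins. All 7 had values above 0 and none passed, with a median of 0.18. Rpl17, which has been described in mice as a restraint on vascular smooth muscle growth, had the largest. Its level was 7.07, 7.35, 7.35 and 7.21 on control arrays and 7.45, 7.75, 7.58 and 7.61 on hypertensive arrays. The groups did not overlap. The control mean was 7.25 ± 0.13 and the hypertensive mean 7.60 ± 0.12 (SD, n = 4 each), a log2 difference of 0.35 ± 0.10 (SE) with limma's adjusted p at 0.0913.

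With normexp background correction Rpl17 passed in limma, at 0.34 with an adjusted p of 0.0488, where 7.56% of all tests passed, and its adjusted p ranged from 0.0488 to 0.284 over 20 alternatives. Its second probe differed by 0.37. Rpl17l5, a numbered copy, differed by 0.34 ± 0.11 (SE; adjusted p = 0.135), and the table lists 14 pseudogenes of Rpl17, so that shared signal between these probes was not told apart. Rpl26, which also binds p53 messenger RNA, differed by 0.22 ± 0.11 (adjusted p = 0.305). Rpl31 separated the groups, at 8.11 ± 0.12 in controls and 8.28 ± 0.093 in hypertensive rats, with a difference of 0.18 ± 0.090 (SE) that did not pass (adjusted p = 0.316). The brightest probes of Rpl35 (0.18), Rpl23a (0.18), Rpl19 (0.14) and Rpl39 (0.13) did not pass either.

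Rpl14, a protein on the outer face of the large subunit, had the third largest value. Its level was 7.60, 7.95, 8.08 and 7.79 on control arrays and 7.99, 8.37, 8.28 and 8.16 on hypertensive arrays. Hypertensive array 1 lay below control array 3, so the groups overlapped. The difference was 0.35 ± 0.13 (SE; adjusted p = 0.17), and the other 2 probes gave 0.082 and 0.20.

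Rpl9, another large subunit gene near the top, had 0.21 (adjusted p = 0.337). Rpl13 separated the groups by a narrow margin, with control levels up to 8.10 and hypertensive levels from 8.13, a difference of 0.18 (adjusted p = 0.254).

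The stalk, which recruits the factors that drive each step of elongation, is built from Rplp0, Rplp1 and Rplp2. Their values were 0.15, 0.16 and 0.14, and none passed. Rpl5 and Rpl11, which carry the 5S RNA into the ribosome and bind Mdm2 when they are free of it, had 0.12 and 0.13. In the group put together for the peptidyl transferase centre, where peptide bonds are made, Rpl4 had 0.15, Rpl8 0.07 and Rpl3 -0.06, none past the threshold. These role groups were put together after the values had been seen, and they lie within the spread of the family.

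On the small subunit, Rps10 had the largest value. Mutations of this gene cause Diamond-Blackfan anaemia in people. Its level was 8.19, 8.43, 8.49 and 8.31 on control arrays and 8.50, 8.77, 8.58 and 8.61 on hypertensive arrays. The lowest hypertensive array was just above the highest control array. The difference was 0.26 ± 0.098 (SE), with limma's adjusted p at 0.178.

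The 5 probes of Rps10 gave from 0.042 to 0.33. Other genes of this anaemia had 0.12 (Rps7), 0.13 (Rps19), 0.14 (Rps24), 0.16 (Rps26) and 0.15 (Rpl35a), and none of these passed. Rps6, the substrate of the S6 kinases downstream of mTORC1, had 0.028 ± 0.095 (SE; adjusted p = 0.896).

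The lowest value of the family was that of Rps4x, an X-linked small subunit gene. Its level was 5.57, 5.92, 5.68 and 5.64 on control arrays and 5.46, 5.72, 5.51 and 5.53 on hypertensive arrays. The ranges overlapped. The difference was -0.14 ± 0.10 (SE; adjusted p = 0.473). Rps2, a protein at the channel where messenger RNA enters, had 5.94, 6.15, 6.18 and 6.02 on control arrays and 5.75, 6.05, 5.87 and 6.11 on hypertensive arrays. These ranges overlapped as well, with a difference of -0.13 ± 0.11 (SE; adjusted p = 0.544). Rps2 has 36 pseudogenes in the table, the largest number named here.

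Near Rps2, Rps3, which forms the entry channel with it, had -0.018, while Rps23 of the decoding centre had 0.091 and Rps27a, made as a fusion with ubiquitin, had 0.12. The remaining values at the lower end were -0.028 for Rpl22l1, -0.02 for Rpl10a, -0.013 for Rpl6 and -0.0083 for Rpl28. None passed, and Rpl22l1, Rpl10a, Rps3, Rpl6 and Rpl28 changed sign when single arrays were left out.

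Some proteins of the ribosome are encoded by paralogs with their own patterns of use. Rpl22, which binds RNA and restrains its paralog in several cell types, had 6.93, 7.16, 7.31 and 7.10 on control arrays and 7.13, 7.46, 7.39 and 7.30 on hypertensive arrays. The groups overlapped, with a difference of 0.20 ± 0.11 (SE; adjusted p = 0.352). Rpl22l1 had 4.36 ± 0.23 and 4.33 ± 0.16 (SD, n = 4 each), a difference of -0.028 ± 0.14 (SE; adjusted p = 0.928). Whether these differences differ from each other was not tested.

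Rps27 and Rps27l, of which the latter is a target of p53, had 0.11 and 0.14. Rps27 turned to -0.016 with quantile normalization. Rps4y2 had -0.00019, against the value of Rps4x above, and Rpl39l5 had 0.091 beside 0.13 for Rpl39. Over the 14 tested genes whose symbols mark a numbered copy or paralog, 12 had values above 0, the median was 0.13, and none passed.

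Rpl39l1, a copy of Rpl39, was too dim for the main test. Its signal was -7.66, -6.49, -7.23 and -7.27 on control arrays, not well above background on any of them, and -5.36, -4.78, -4.72 and -4.97 on hypertensive arrays, well above background on 2 of 4. Every hypertensive array lay above every control array. Measured against the lowest signal well above background on each control array, the hypertensive mean was 1.88-fold higher. This is not a lower bound, since only 2 of 4 hypertensive arrays were well above background. Without a filter on dim probes its adjusted p in limma was 0.0042, where 1.56% of the 41047 tests passed. That p rests on control values at background, so the size of the difference is not known. Rpl3l, the muscle form of Rpl3, was not well above background on any array.

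Where a gene had several probes, they did not always give the same sign. Of 58 genes with at least 2 kept probes, 15 had probes of both signs, and in 0 of these did probes of both signs have an unadjusted p under 0.05. Of the 206 kept probes, 167 had values above 0. Among these 15 genes the widest gap was in Rps18, a protein at the head of the small subunit used as a reference gene in some studies. Its brightest probe gave 0.067 ± 0.13 (SE), another -0.014 and the third -0.33 (adjusted p = 0.144). Among genes with probes of 1 sign, the 4 probes of Rpl36a ran from 0.15 to 0.59. The 0.59 came from a dim probe, at a mean of -4.17 in controls and -3.58 in hypertensive rats (limma's adjusted p = 0.198). Its other probes, at mean control levels of 7.01 to 7.41, gave 0.15 to 0.18.

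**Figure D5:**
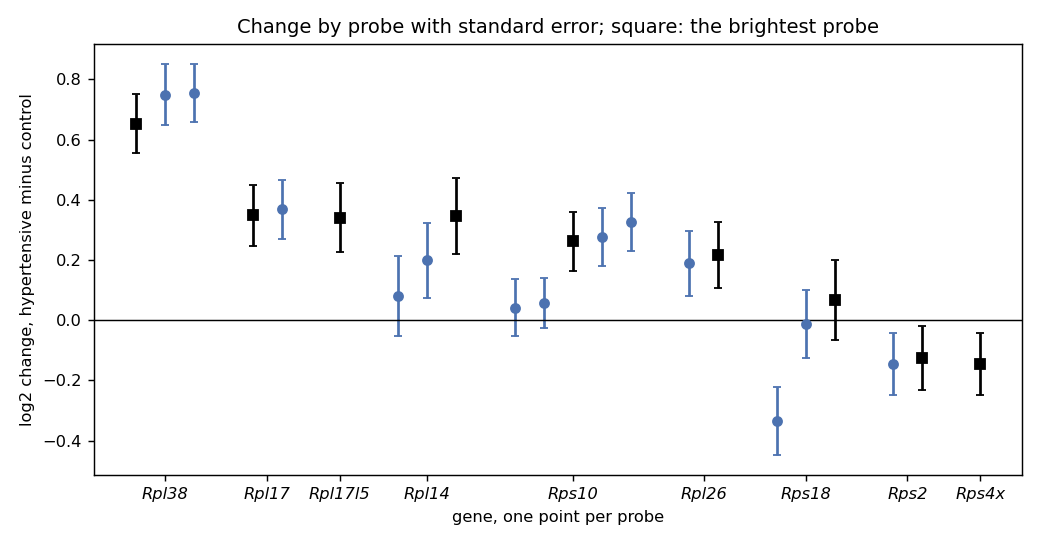
Log2 change (hypertensive minus control, vertical axis) of each kept probe of 9 genes, with its standard error as a bar; the black square is the brightest probe, which stands for the gene. The 3 probes of Rpl38 lie between 0.65 and 0.76, those of Rps10 between 0.042 and 0.33, and those of Rps18 on both sides of 0.

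Among the genes with the steadiest control levels were Rpl10 (SD 0.037), which joins the large subunit late in its assembly, and Rpl13 (0.08). Those with the most variable were Rps12l4 (0.30), Rpl23al8 (0.25) and Rpl39l5 (0.24), all of them numbered copies. They were also dim, with mean control levels of -3.77, 3.01 and -1.79, where the family median was 7.37 to 7.71 on control arrays. Rpl10 had 7.15, 7.22, 7.19 and 7.14 on control arrays and 7.13, 7.32, 7.23 and 7.26 on hypertensive arrays. The ranges overlapped and the difference of 0.06 changed sign with quantile normalization and median centring.

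Genes that make, supply and use ribosomes were read beside the proteins themselves. Rack1, a small subunit protein with a symbol of its own that docks signalling kinases, had -0.091 ± 0.080 (SE; limma's adjusted p = 0.561). Of 80 ribosome biogenesis genes, 1 rose and 1 fell (2.50% called, below the 4.53% of all tests), with a median of -0.03. In this list 7 genes had every hypertensive array below every control array, and 3 had the opposite order. The shares over all tests were 5.78% and 7.84%. Las1l, an endonuclease that cuts between ribosomal RNA parts, rose by 0.51 ± 0.081 (SE; limma's adjusted p = 0.00905), but did not pass when arrays were centred on the ribosomal protein genes (0.40, adjusted p = 0.127). Nob1, the nuclease that finishes the small subunit's RNA, fell by 0.56 ± 0.085 on the log2 scale (adjusted p = 0.00809).

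The 13 RNA polymerase I genes, which transcribe ribosomal RNA, had none past the threshold and a median of 0.017, with Polr1f at 0.54 (adjusted p = 0.227) and Polr1b at -0.32 (adjusted p = 0.269). Of 44 translation factors 0 rose and 1 fell (2.27%), with a median of 0.0035. Every hypertensive array lay below every control array for 9 of the 44, where 5.78% of all tests had this order, and the opposite order was found for 1. At an unadjusted p under 0.05 in limma there were 20.5% of these factors, close to the 20.3% of all tests. The one that fell was Eif3c, a core subunit of the initiation factor that binds the small subunit, by 0.47 ± 0.068 on the log2 scale (adjusted p = 0.006). Other transcripts with a TOP motif had 0 of 8 past the threshold and a median of 0.053, with Gas5 at -0.19 and Naca at -0.14. They include noncoding hosts of small nucleolar RNAs such as Gas5.

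Of 20 genes of mTORC1 signalling and TOP messenger RNA control, 1 rose (5%, near the share of all tests), 0 fell and the median was 0.018. The gene that rose was Larp4b, an RNA-binding protein that keeps messenger RNAs stable, by 0.59 ± 0.083 (SE; adjusted p = 0.00512), a call it lost in limma with the same centring (0.48, adjusted p = 0.0878). Of 13 nucleolar stress and ribosome quality control genes none passed, with a median of -0.041, and Gadd45a had -0.43 and Mdm4 0.17. In each of these lists at most 2 genes passed. Where none did, limma's unadjusted p was under 0.05 in 1 of 13 polymerase genes, 0 of 8 other TOP transcripts and 0 of 13 stress and quality control genes, and a plain equal-variance test called 0 in each of these 3 lists.

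The ribosome of mitochondria, which is built from other genes, gave 1 gene that rose and 2 that fell of 68 tested, with a median of 0.024. That is 4.41% called, close to the 4.53% of all tests. Mrpl38 rose by 0.74 ± 0.14 (SE; limma's adjusted p = 0.0231), and despite its name it is not a copy of Rpl38. Mrpl4 fell by 0.96 ± 0.13 (adjusted p = 0.00512) and Mrps18b by 0.48 ± 0.11 (adjusted p = 0.0406), both on the log2 scale. The SD of the changes was 0.21 in this list and 0.10 in the cytosolic family. This list was also dimmer than that family, with a median level of 2.27 to 2.49 per array. Mrpl38 passed in 14 of 20 alternatives and Mrps18b in 9.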

How the data were processed

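Total RNA was extracted with Trizol and 100 ng was labelled with Cy3, per the labels' protocols. Spot intensity was deposited as background-subtracted, processed signal from Agilent Feature Extraction, in version 10.7.1.1 per the file headers and 12.1.1.1 per the submitters' processing notes. The deposited value table holds a linear ratio, found here to equal that intensity over a constant near each array's 75th percentile; it served as an alternative.

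From 213 to 396 spots per array were flagged as outliers. They were left out unless every spot of the probe was flagged, in which case they were kept. Spots of a probe were averaged on the log2 scale, and the array's 75th percentile was subtracted. Of 45598 probes, 27822 were kept as well above background on at least 3 of 4 arrays of a group, on at least 50% of their spots. Symbols came from RefSeq's rat gene table (GRCr8) by accession, for 46.6% of probes; the 6336 probes with Ensembl names stayed unnamed. A gene is represented by its brightest kept probe. Groups were compared with limma 3.58.1 in R 4.3.3 (lmFit and eBayes) with Benjamini-Hochberg adjustment over all tests, and the script was tested on simulated data. Genes named are those past the threshold, the 8 highest and 8 lowest changes, paralogs with their parents, the 3 most and 3 least variable control levels, and up to 4 of each gene list; Rpl13, Rpl31, Rpl39l1, Rps18 and the genes of the role groups were added after their values were seen. Some genes this rule selects are not reported here. The members and lists were chosen with earlier results of these data known. Each array is a separate rat, so 4 arrays per group set the precision.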

Additional observations from a re-analysis of the deposited data

How the results depend on the processing

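Rpl38 kept its direction and stayed past the threshold in limma under all 20 alternatives run for it, with changes of 0.52 to 0.72 and adjusted p from 0.0019 to 0.0288, the plain equal-variance test included. No member gene passed as lower in any of them. The cause of the shifts below was not tested. With 1 test per gene, 1 member was called higher; normexp gave 2 (with Rpl17), no detection filter 2 (with Rpl39l1, at background in controls), and every kept probe 3 (all of Rpl38). Normexp was run on the median spot signal, the column the files hold. Leaving out 1 array gave 1 member each time.

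Over all tests the 1111 calls became 1857 with normexp, 641 with no detection filter, 593 with the plain equal-variance test and 714 with centring on the member genes. Leaving out 1 array gave 629 to 1473, with 629 without control replicate 1, 725 without control 2, 695 without control 3 and 688 without hypertensive replicate 2. The replicate block gave 675, with Rpl38 still past the threshold (adjusted p = 0.0259 in limma) and 0 biogenesis genes (Las1l and Nob1 both at 0.0568). The shared replicate numbers follow the slide columns. Deviations of same-numbered arrays correlated at 0.21, 0.12, -0.0035 and -0.15. The best match had the same number for controls 1 and 2 and another number for controls 3 and 4. Whether the numbers pair the rats is not stated, and these correlations cannot decide it.

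Biogenesis genes went from 2 to 4 with quantile normalization, normexp, array weights and an intensity trend. Translation factors went from 1 to 3 with normexp, array weights and the trend, to 2 with member centring, and to 1 to 3 without 1 array (3 without hypertensive replicate 4). The mTORC1 list went from 1 to 2 with normexp, array weights and the trend, and to 1 to 2 without 1 array (2 without hypertensive replicate 4). RNA polymerase I had 0 to 1 without 1 array (1, Polr1b, without hypertensive replicate 4). Mitochondrial ribosomal proteins went from 3 to 1 with no detection filter and the plain test, and to 1 to 4 without 1 array (1 without control replicate 1, control replicate 3 or hypertensive replicate 3). Nucleolar stress had 1 with every kept probe.

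The family median without 1 array ran from 0.06 (without control replicate 1) to 0.16, the large subunit from 0.078 to 0.18 and the small from 0.03 to 0.15. The small subunit median was -0.012 with quantile normalization and -0.014 with member centring. Among the named members, signs turned for those with small values. Rpl10 was -0.036 with quantile normalization, -0.026 with median centring, -0.0201 with the mean of its probes and -0.056 with member centring. Rpl22l1 was 0.0092 with the mean of its probes and 0.016 with array weights, Rps3 0.014 with array weights, and Rps4y2 0.047 with normexp. Rpl23al8 was -0.0017 with median centring and -0.032 with member centring, Rpl39l5 -0.025 with member centring, and Rps27 -0.016 with quantile normalization and -0.0026 with member centring. Without 1 array, Rpl10a ran from -0.061 to 0.0018, Rpl22l1 from -0.12 to 0.065, Rpl23al8 from -0.046 to 0.19, Rpl28 from -0.086 to 0.056, Rpl6 from -0.071 to 0.036, Rps3 from -0.076 to 0.0399 and Rps4y2 from -0.10 to 0.18.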
